A study of Mus musculus with 7 samples.

Results

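Chemokines and their receptors were examined in the RNA of whole mouse uterus. The members were all genes of the deposited table whose symbols name a CC, CXC, CX3C or XC chemokine, a receptor for these, or the atypical receptors Ackr1, Ackr2 and Ackr3. This gave 60 of 24964 listed genes: 24 CC ligands, 13 CXC ligands, the ligands Cx3cl1 and Xcl1, 18 receptors and 3 atypical receptors. RNA sequencing covered 7 libraries from mice at 12 weeks of age, all in diestrus, a stage of low sexual receptivity. The 3 control libraries (replicate numbers 1, 2 and 4) had the genotype Pgrcre/+. The other 4 libraries (numbers 1 to 4) had the genotype Pgrcre/+Foxl2LsL/+ and are called the libraries labelled Foxl2LsL. All 7 thus carried 1 Pgrcre allele, which drives Cre recombinase from the progesterone receptor locus in epithelium, stroma and muscle of the uterus. FOXL2 is a transcription factor of the forkhead family, and the study's title names its overexpression. The labels do not say that each library came from a separate mouse, so p-values measure the spread between these samples.

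Chemokines are small secreted proteins that bind receptors coupled to G proteins and direct the movement of leukocytes and other cells. CC and CXC chemokines are told apart by the spacing of their first cysteines, and most bind more than a single receptor. Atypical receptors bind chemokines without G protein signalling and remove or transport them. In the uterus, chemokines come from luminal and glandular epithelium, stroma, vessels and leukocytes, and their levels follow the steroid hormones of the cycle.

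Values are FPKM, which scale fragments by gene length and by library size, so levels can be set beside each other between genes. Fold changes are log2 differences of FPKM + 1, labelled Foxl2LsL minus control, with a standard error (SE), a scale on which changes of weakly expressed genes look smaller than they are. Means stand with the SD over 3 controls or 4 libraries labelled Foxl2LsL, and where values of both groups follow each other, controls come first. Genes with a mean of at least 1 FPKM over the 7 libraries were tested with limma, and p-values were adjusted by Benjamini-Hochberg over all 13334 tested genes with a threshold of 0.05. The denominators recovered from the FPKM steps were 47800000 to 67300000 fragments per library. Foxl2 itself was at 11.1 to 19.3 FPKM in controls and 12.7 to 17.2 FPKM in the libraries labelled Foxl2LsL (log2 fold change 0.06, SE 0.18, limma adjusted p 0.818). The value of the targeted gene thus did not rise in the table, and groups are named by their labels throughout. Whether transcripts of the Foxl2LsL allele would be counted at Foxl2 is not given in the sources used here, so this value does not show whether FOXL2 was overexpressed. All 8 uterine tissue markers passed the filter, and their summed level was 326.7 to 370.5 FPKM in controls and 226.7 to 236.5 FPKM in the libraries labelled Foxl2LsL. Hoxa11, Hoxd10 and Hoxa10 fell and Esr1 rose among them. On the second principal component of all tested genes, which held 16.7% of the variance, control 4 lay apart at -31.9, against 8.53 and 25.2 in the other controls and -10.5 to 10.2 in the libraries labelled Foxl2LsL.

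Of the 60 members, 24 passed the filter and 36 did not, among them 5 listed at 0 in every library. Among those 24, 7 were higher and 4 lower past the threshold in the libraries labelled Foxl2LsL. Across all tested genes 40.6% passed, 16.7% higher and 23.9% lower, so 11 of 24 members (45.8%) is near the background. The median log2 fold change was 0.18 over the 24 tested members and -0.05 over all tested genes. Ackr1, Ccl12, Ccl9, Cxcl10 and Cxcr6 passed the filter through a single group, with a mean below 1 FPKM in the other, so a difference in them is partly set by the filter. Nearest to the filter were Cxcr6, Ccl9 and Ccl25 just above it (means 1.10, 1.14 and 1.20 FPKM) and Ccl7, Ccr10 and Ccl2 just below it (0.911, 0.905 and 0.779 FPKM). The higher genes were Ccl11, Cxcl17, Ccl5, Ccl8, Ccl12, Cx3cl1 and Ccl27a, all ligands. The lower genes were the ligands Cxcl15 and Cxcl14 and the atypical receptors Ackr3 and Ackr1. None of the 5 tested receptors with G protein signalling passed the threshold (limma), 0 of them had an unadjusted p under 0.05, and limma-voom on recovered fragments called 0. Of the 24 tested members, 13 did not overlap between the groups, against 47.6% of all tested genes.

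**Figure D1:**
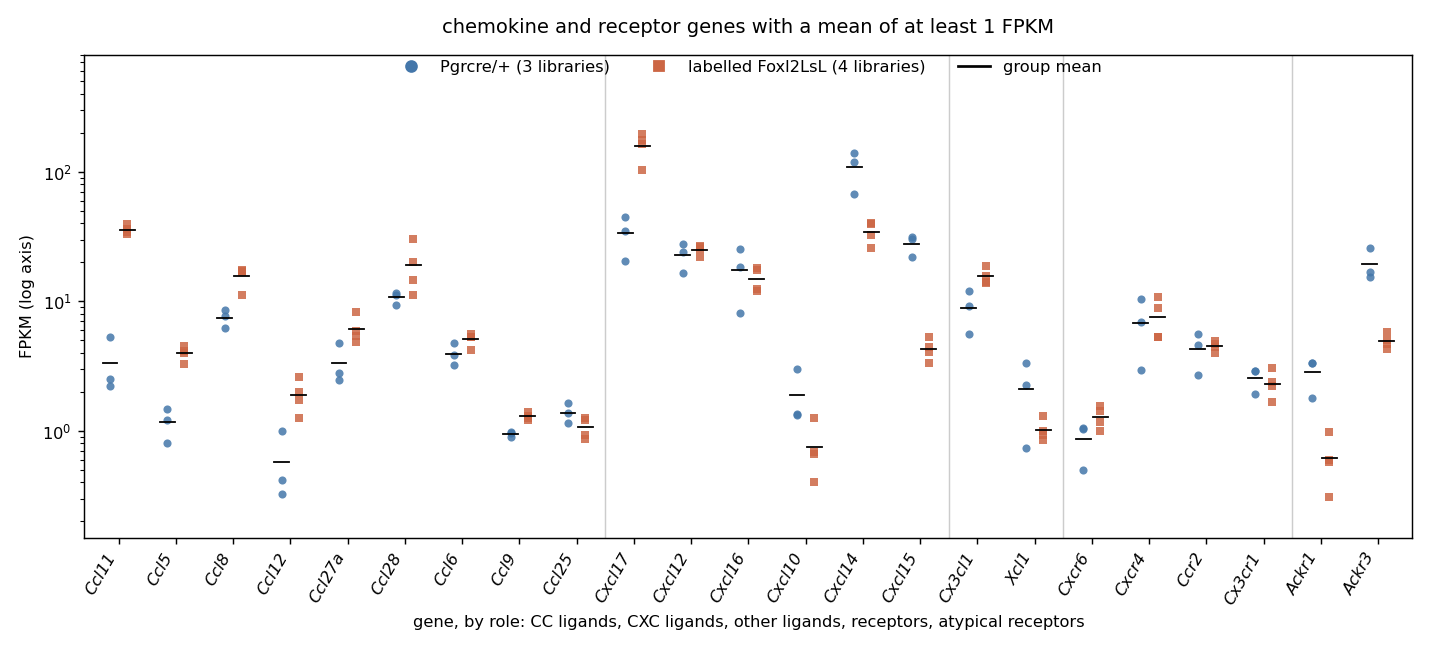
FPKM (log axis) of 23 of the 24 tested chemokine and receptor genes in each of the 3 control libraries (circles) and 4 libraries labelled Foxl2LsL (squares), with group means as bars, ordered by role. Ccl11 and Cxcl17 lie higher, and Cxcl14, Cxcl15 and Ackr3 lower, in every library labelled Foxl2LsL than in any control.

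The bases upstream of 5 members are shown because these genes moved far or lie side by side on chromosome 11. They are Cxcl15, Ackr3 and Cxcl14, which fell, and Ccl8 and Ccl12, neighbours that both rose. Each run is the 250 bases before the annotated start, 5′ to 3′ on the gene's strand, from RefSeq on GRCm38.p6, with matches to the motifs below in capitals. The window of Cxcl15 lies at chr5:90794284-90794533, plus strand, that of Ackr3 at chr1:90203730-90203979, plus strand, and that of Cxcl14 at chr13:56296552-56296801, minus strand. The window of Ccl8 lies at chr11:82114935-82115184, plus strand, and that of Ccl12 at chr11:82101595-82101844, plus strand.
Cxcl15: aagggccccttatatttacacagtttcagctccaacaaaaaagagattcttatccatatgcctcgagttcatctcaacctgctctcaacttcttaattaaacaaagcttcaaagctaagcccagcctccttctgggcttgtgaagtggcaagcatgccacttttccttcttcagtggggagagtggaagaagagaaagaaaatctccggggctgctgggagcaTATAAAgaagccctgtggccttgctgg
Ackr3: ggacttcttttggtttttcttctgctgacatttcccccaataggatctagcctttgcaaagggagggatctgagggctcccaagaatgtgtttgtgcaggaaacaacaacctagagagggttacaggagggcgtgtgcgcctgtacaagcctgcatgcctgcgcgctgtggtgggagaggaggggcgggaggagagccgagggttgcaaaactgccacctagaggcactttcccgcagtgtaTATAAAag
Cxcl14: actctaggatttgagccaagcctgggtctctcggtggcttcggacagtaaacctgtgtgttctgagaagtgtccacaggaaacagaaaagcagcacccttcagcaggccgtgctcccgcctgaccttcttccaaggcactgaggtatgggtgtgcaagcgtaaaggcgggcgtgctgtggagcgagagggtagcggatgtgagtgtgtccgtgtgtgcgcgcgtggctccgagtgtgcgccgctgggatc
Ccl8: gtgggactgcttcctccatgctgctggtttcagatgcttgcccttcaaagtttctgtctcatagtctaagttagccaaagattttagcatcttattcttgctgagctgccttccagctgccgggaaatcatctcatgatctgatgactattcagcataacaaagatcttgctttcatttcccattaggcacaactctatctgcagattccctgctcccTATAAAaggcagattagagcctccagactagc
Ccl12: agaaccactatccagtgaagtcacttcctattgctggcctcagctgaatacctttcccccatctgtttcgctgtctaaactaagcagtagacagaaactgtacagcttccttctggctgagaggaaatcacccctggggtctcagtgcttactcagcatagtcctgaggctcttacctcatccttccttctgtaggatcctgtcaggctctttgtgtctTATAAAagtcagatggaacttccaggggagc

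All capitals in these runs mark TATAAA, searched on the gene's strand. It lay 22 to 27 bases before the start in Cxcl15, 27 to 32 in Ccl8 and 26 to 31 in Ccl12, and 3 to 8 bases before the start in Ackr3, and Cxcl14 had no match. RefSeq entries were found for 44 of the 60 members, in 51 windows. TATAAA was present in 11 of those 51 windows (21.6%) and in 7.59% of all 32851 windows of the same length. The other motifs were searched on both strands. The forkhead core GTAAACA was in 0 of the 51 windows and in 3.17% of all windows. The AP-1 motif TGACTCA was in 5 windows, among them that of Ccl27a (4.46% of all). A match is only a run of letters, and a missing match says nothing about a factor beyond these windows.

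Ccl11, the gene for eotaxin, a chemokine that attracts eosinophils through Ccr3, had the largest rise of the family. It was at 2.21, 5.28 and 2.51 FPKM in controls 1, 2 and 4 and at 39.6, 33.2, 35.8 and 34.6 FPKM in the libraries labelled Foxl2LsL. The groups lay far apart, and the 4 labelled libraries were within a narrow band. Controls averaged 3.33 ± 1.69 FPKM (SD, n = 3) and the libraries labelled Foxl2LsL averaged 35.8 ± 2.75 FPKM (SD, n = 4), a ratio of 10.7. The log2 fold change was 3.15 (SE 0.22, limma adjusted p 0.000159), with 150 to 2785 fragments behind each value. Ccl11 lies on chromosome 11 at 82057823 to 82062955 (plus strand, GRCm38 in GENCODE M21), and no exon base of it overlaps another gene.

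The partner of eotaxin and the markers of eosinophils were at low levels. Ccr3, the eotaxin receptor, was at 0.0770, 0.0770 and 0.140 FPKM in controls and at 0.177, 0.0640, 0.0660 and 0.0470 FPKM in the libraries labelled Foxl2LsL, and the groups overlapped. Ccl24, the gene for a second eotaxin, averaged 0.0790 ± 0.0592 FPKM in controls (SD, n = 3) and 0.394 ± 0.239 FPKM in the others (SD, n = 4), and its groups also overlapped. None of 6 eosinophil markers reached the filter. Their summed level was 0.294 to 0.482 FPKM in controls and 0.660 to 0.959 FPKM in the libraries labelled Foxl2LsL, and none was at 0 in every library. Epx, eosinophil peroxidase, averaged 0.0170 ± 0.00954 FPKM in controls (SD, n = 3) and 0.0213 ± 0.0193 FPKM in the others (SD, n = 4), while Il5ra was at 0.0243 ± 0.0103 and 0.299 ± 0.113 FPKM. The part of eosinophils in the rise of Ccl11 was not tested.

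Ccl11 lies in a row of 6 CC chemokine genes that spans 270 kb of chromosome 11 (82035571 to 82305690, GRCm38), in the order Ccl2, Ccl7, Ccl11, Ccl12, Ccl8 and Ccl1. Much of that span is the annotated Ccl1 gene itself (82176657 to 82305690). Of the row, Ccl11, Ccl8 and Ccl12 passed the filter and were higher, against 16.7% of all tested genes, and Ccl12 passed only through the group in which it was high. Ccl8, which attracts monocytes and T cells and in mice acts through Ccr8, was at 8.52, 7.65 and 6.17 FPKM in controls and at 16.8, 11.1, 17.1 and 17.5 FPKM in the libraries labelled Foxl2LsL. Its groups did not overlap, and labelled library 2 was the lowest of its group. The log2 fold change of Ccl8 (82115185 to 82116799) was 0.97 (SE 0.17, limma adjusted p 0.00399). Ccl12, a monocyte attractant that binds Ccr2, was at 0.324, 0.416 and 0.995 FPKM and at 1.99, 1.25, 1.73 and 2.59 FPKM, with no overlap. Its log2 fold change was 0.88 (SE 0.20, limma adjusted p 0.0116), on 11 to 73 fragments per library (82101845 to 82103400).

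The outer genes of that row were below the filter and overlapped between the groups. Ccl2, the main monocyte attractant of the family, was at 0.548, 0.886 and 1.17 FPKM in controls and 0.947, 0.571, 0.410 and 0.921 FPKM in the libraries labelled Foxl2LsL. Ccl7, another ligand of Ccr2, was at 0.375, 0.484 and 0.973 FPKM and at 1.87, 0.498, 0.579 and 1.60 FPKM. Labelled libraries 1 and 4 lay above every control for Ccl7, while libraries 2 and 3 lay within the range of the controls. Ccl1 had at most 2 fragments in any library.

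**Figure D2:**
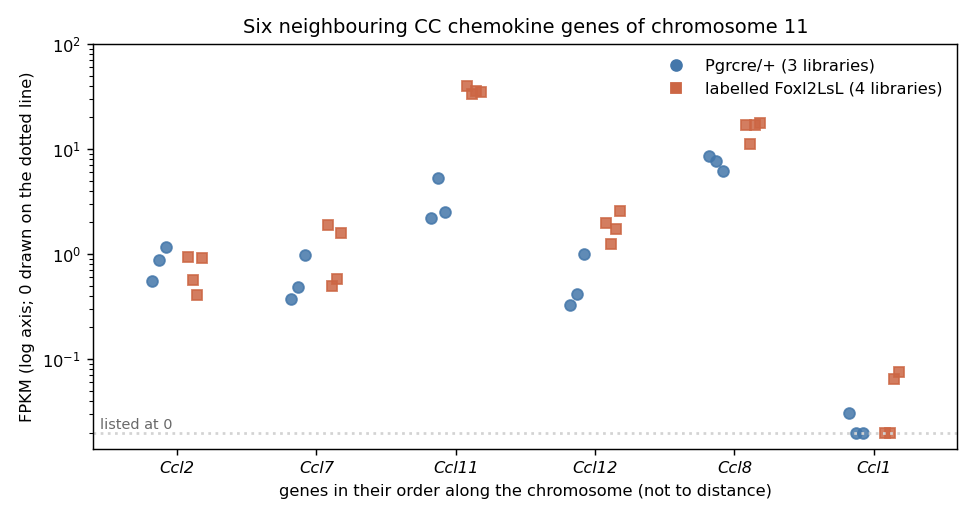
FPKM (log axis) of 6 neighbouring CC chemokine genes in their order along chromosome 11, in 3 control libraries (circles) and 4 libraries labelled Foxl2LsL (squares), with values of 0 on the dotted line. Ccl11, Ccl12 and Ccl8 in the middle of the row are higher in every labelled library, and Ccl2, Ccl7 and Ccl1 overlap between the groups.

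A neighbouring row of 5 genes on chromosome 11 (83525778 to 83664683) held Ccl5, Ccl9, Ccl6, Ccl3 and Ccl4. Ccl5, made by T cells, NK cells and other cells and a ligand of Ccr1, was at 1.49, 1.20 and 0.804 FPKM in controls and at 4.02, 4.14, 4.48 and 3.30 FPKM in the libraries labelled Foxl2LsL. Every labelled library was above every control, and the log2 fold change was 1.21 (SE 0.14, limma adjusted p 0.000783), with 28 to 144 fragments per library. Ccl9 did not overlap between the groups either, at 0.897, 0.984 and 0.963 FPKM and at 1.22, 1.26, 1.40 and 1.29 FPKM. Its difference was small (log2 fold change 0.23, SE 0.09) and missed the threshold (limma adjusted p 0.0770), though 5 of 15 alternatives called it, with adjusted p-values of 0.0196 to 0.249 over all 15. Ccl6 averaged 3.95 ± 0.770 FPKM in controls (SD, n = 3) and 5.11 ± 0.616 FPKM in the others (SD, n = 4), with overlap and a limma adjusted p of 0.0913, which became 0.0276 without control 4. Ccl3 and Ccl4, inflammatory chemokines of macrophages and T cells, were below the filter and overlapped, with Ccl4 at 0.215, 0.248 and 0.485 FPKM and at 0.347, 0.254, 0.551 and 0.346 FPKM.

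A pair of epithelial CC ligands share the receptor Ccr10. Ccl28, a mucosal chemokine, was at 11.2, 11.6 and 9.38 FPKM in controls and at 30.3, 14.5, 11.2 and 20.2 FPKM in the libraries labelled Foxl2LsL. Labelled library 3 lay within the controls and library 1 far above them, and the log2 fold change of 0.69 (SE 0.29) missed the threshold (limma adjusted p 0.0942, and 0.0360 without labelled library 3). Ccl27a was at 2.45, 2.81 and 4.73 FPKM and at 5.44, 8.25, 5.88 and 4.84 FPKM. The groups only just did not overlap, since control 4 lay below labelled library 4 by a small margin. Its log2 fold change was 0.73 (SE 0.21, limma adjusted p 0.0290). That call was lost without control 1 (0.0844), control 2 (0.0953), labelled library 2 (0.0560) or labelled library 3 (0.0645), in the replicate block (0.106) and with no filter (0.0533). Of the 50-base words of Ccl27a transcripts, 45.0% also occur in transcripts of other genes, and the 5 that share most of them, Ccl27b included, were listed at 0 in every library, so its level is uncertain. Ccr10, their receptor, was at 0.640, 0.724 and 1.21 FPKM and at 0.531, 1.36, 0.824 and 1.05 FPKM, with overlap.

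Ccl25, the ligand of Ccr9, averaged 1.39 ± 0.245 FPKM in controls (SD, n = 3) and 1.07 ± 0.194 FPKM in the others (SD, n = 4), with overlapping groups (limma adjusted p 0.214). Ccl19, Ccl21a, Ccl21b, Ccl21c and Ccl27b, the first 4 of them ligands of Ccr7, were listed at 0 in all libraries. Of their transcripts' 50-base words, 52.0% in Ccl19, 71.6% in Ccl21a, 100% in Ccl21b and 98.1% in Ccl27b also occur in other genes of GENCODE M21, and Ccl21c has no entry there by that symbol. With such copies, the zeros do not show absence. Markers of lymphatic endothelium, a main source of Ccl21 in many tissues, were measured: Mmrn1, Reln, Pdpn, Flt4 and Prox1 rose and Lyve1 fell past the threshold (limma, 6 of 6 tested, median log2 fold change 0.52). Over all tested genes 16.7% rose and 23.9% fell, and Prox1 passed the filter only through the libraries labelled Foxl2LsL. The calls of Flt4, Reln and Lyve1 were each lost when some single libraries were left out, with adjusted p-values up to 0.0899, 0.0604 and 0.0864. The summed level of the list was 21.7 to 37.6 FPKM in controls and 37.0 to 45.0 FPKM in the libraries labelled Foxl2LsL.

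Cxcl17 and Cxcl14, both chemokines of epithelia, had the highest mean levels of all members in controls and moved in opposite directions. Cxcl17, a mucosal chemokine, was at 44.8, 35.1 and 20.4 FPKM in controls and at 196, 103, 164 and 175 FPKM in the libraries labelled Foxl2LsL. The lowest labelled library stood well above the highest control, and the log2 fold change was 2.25 (SE 0.30, limma adjusted p 0.00134). Cxcl14, a chemokine whose receptor is debated, was at 139, 119.6 and 67.1 FPKM in controls and at 39.2, 25.7, 32.7 and 40.4 FPKM. All 4 labelled libraries were below the lowest control, control 4, and the log2 fold change was -1.58 (SE 0.26, limma adjusted p 0.00297). Cxcl17 lies on chromosome 7 at 25400053 to 25412886 and Cxcl14 on chromosome 13 at 56288643 to 56296551, both on the minus strand (GRCm38). Of the mean levels of all members, Cxcl14 ranked 1 and Cxcl17 ranked 2 in controls, against 3 and 1 in the libraries labelled Foxl2LsL, where Ccl11 came between them.

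Within each library the ratio of Cxcl17 to Cxcl14 does not depend on the library's scaling, and it was computed after the values were seen. Controls had ratios of 0.307 ± 0.0149 (SD, n = 3), and the libraries labelled Foxl2LsL had ratios of 4.58 ± 0.501 (SD, n = 4). The groups did not overlap, which follows from the values of the pair above. Cxcl14 made up 33.2% to 46.6% of the summed FPKM of the 39 ligands in controls and 9.40% to 10.8% in the libraries labelled Foxl2LsL. The share of Cxcl17 was 10.1% to 15.1% and 38.3% to 47.6%. Their joint share was 53.5% ± 9.34 (SD, n = 3) and 54.8% ± 4.62 (SD, n = 4), and it overlapped. The summed level of all ligands overlapped too, at 202.0 to 297.7 FPKM in controls and 267.9 to 410.9 FPKM in the libraries labelled Foxl2LsL (2-sided exact permutation p 0.171). The summed level of all receptors, the atypical ones included, did not overlap. It was 35.2 to 51.6 FPKM in controls and 24.9 to 27.1 FPKM in the others (2-sided exact permutation p 0.0571). That p is the smallest that 3 against 4 libraries allow. Within this sum, Ackr3 alone was at 15.4 to 25.7 and 4.27 to 5.76 FPKM.

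**Figure D3:**
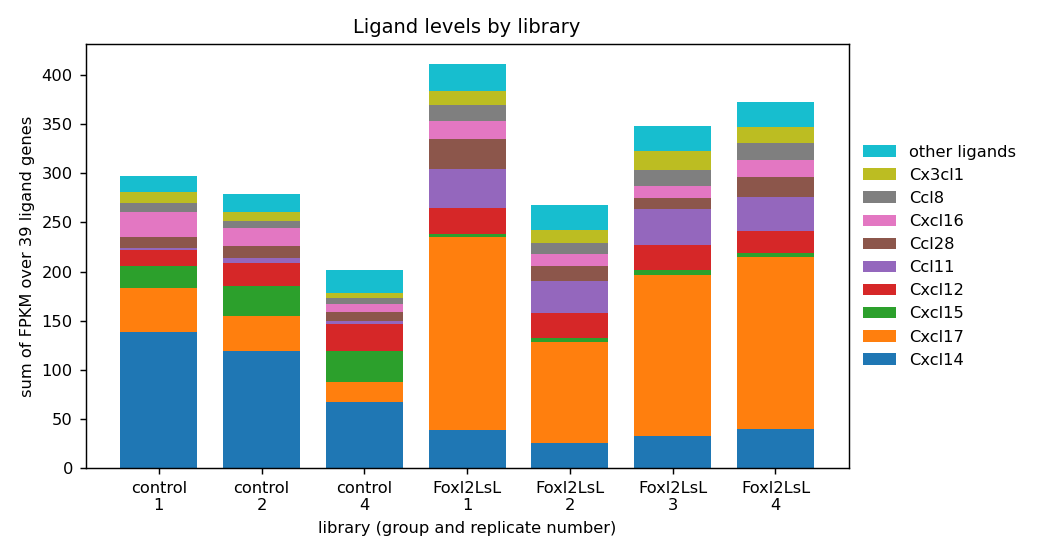
Stacked FPKM of the 39 chemokine ligand genes in each of the 7 libraries, with 9 abundant ligands drawn separately and the others summed. Cxcl14 is the largest block in all 3 controls and Cxcl17 in all 4 libraries labelled Foxl2LsL, where Ccl11 also takes a visible share and Cxcl15 shrinks.

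Cxcl15, a chemokine known from lung and from uterine glands, had the largest fall. It was at 21.9, 30.2 and 31.4 FPKM in controls and at 3.31, 4.04, 5.27 and 4.43 FPKM in the libraries labelled Foxl2LsL, on 411 to 4383 fragments per library. The groups were far apart, with a log2 fold change of -2.45 (SE 0.16, limma adjusted p 0.000145). Foxa2, a transcription factor of the glands, was at 4.57, 6.005 and 6.57 FPKM and at 1.18, 1.47, 1.60 and 1.20 FPKM, and it fell as well (log2 fold change -1.50, limma adjusted p 0.000320). Of the 6 genes of the gland list, which holds Cxcl15 itself, 3 were tested. The 2 lower ones were Cxcl15 and Foxa2, and 1 did not pass, against 23.9% lower among all tested genes. In bulk tissue, fewer cells of a type and less RNA per cell cannot be told apart, and the part of the glands in the fall of Cxcl15 was not tested. Cxcl15 lies on chromosome 5 at 90794534 to 90803067 in a row with Cxcl5, Cxcl3, Cxcl1 and Cxcl2, ligands of the neutrophil receptor Cxcr2, and these 4 neighbours were all below 0.4 FPKM in every library.

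The other CXC ligands did not pass the threshold. Cxcl12, the stromal ligand of Cxcr4 and Ackr3, was at 16.6, 24.0 and 27.9 FPKM in controls and at 26.5, 25.2, 26.0 and 21.8 FPKM in the libraries labelled Foxl2LsL, with overlap (log2 fold change 0.15, SE 0.16, limma adjusted p 0.510). Cxcl16, a ligand made in soluble and membrane-bound forms, was at 25.4, 18.4 and 8.11 FPKM and at 18.2, 12.4, 12.0 and 17.4 FPKM, so the controls spread more widely than the groups differed (limma adjusted p 0.859). On the opposite strand, Zmynd15 overlaps 18.3% of the exon bases of Cxcl16, and with unstated use of strand the reads of the shared bases cannot be told apart. Cxcl10, an interferon-induced ligand of Cxcr3, was at 2.997, 1.34 and 1.33 FPKM and at 0.666, 0.400, 0.691 and 1.26 FPKM. Its groups did not overlap, and its log2 fold change of -0.69 (SE 0.24) lay at the edge of the threshold (limma adjusted p 0.0507, with 0.0391 to 0.127 over its alternatives).

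Cxcl13, the B cell attractant that binds Cxcr5, was below the filter but did not overlap between the groups. It was at 0.149, 0.358 and 0.197 FPKM in controls and at 1.01, 0.883, 0.540 and 1.11 FPKM in the libraries labelled Foxl2LsL, on 11 to 77 fragments (2-sided exact permutation p 0.0571, the smallest that 3 against 4 libraries allow). With genes of a mean of at least 0.1 FPKM tested, its log2 fold change was 0.61 (limma adjusted p 0.00731), where 36.2% of 16728 genes passed. Cxcr5 was at most at 0.0880 FPKM in any library. Of 8 B and plasma cell markers, 4 were below 1 FPKM in every library, Ms4a1 among them. Cd79b of that list was called higher, with the limits given below. The part of B cells in the values of Cxcl13 was not tested. Cxcl1, a ligand of Cxcr2, averaged 0.308 ± 0.108 FPKM in controls (SD, n = 3) and 0.191 ± 0.0396 FPKM in the others (SD, n = 4), with overlap.

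Cx3cl1, which encodes fractalkine, a chemokine tethered to the membrane of epithelial and endothelial cells, was at 12.0, 9.13 and 5.62 FPKM in controls and at 14.1, 13.9, 18.6 and 15.7 FPKM in the libraries labelled Foxl2LsL. The groups did not overlap, though control 1 lay close to the lowest labelled library. The log2 fold change was 0.79 (SE 0.22, limma adjusted p 0.0238), and the call was lost without control 2 (0.0564), labelled library 3 (0.0644) or labelled library 4 (0.0548) and in the replicate block (0.0933). Its receptor Cx3cr1, found on monocytes and macrophages, averaged 2.56 ± 0.562 FPKM in controls (SD, n = 3) and 2.32 ± 0.563 FPKM in the others (SD, n = 4), with overlap (limma adjusted p 0.642). Xcl1, a lymphocyte chemokine whose receptor Xcr1 marks a class of dendritic cells, was at 0.731, 2.27 and 3.32 FPKM and at 1.30, 0.929, 0.989 and 0.845 FPKM. Control 1 lay below all labelled libraries and controls 2 and 4 above them, and the limma adjusted p of 0.170 became 0.00615 without control 1. Gm20743 on the opposite strand overlaps 18.7% of the exon bases of Xcl1, and with unstated use of strand the reads of the shared bases cannot be told apart. Xcr1 was at 0.216 ± 0.133 and 0.227 ± 0.0361 FPKM.

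Several epithelial ligands differed within the controls. Cxcl14, Cxcl16, Cxcl17, Ccl28, Cx3cl1 and the receptor Cxcr4 were each lowest in control 4 among the controls. Cxcl15 and Ccl27a went the other way and were highest in control 4. Wnt7a, a gene of the luminal epithelium, was at 77.6, 33.2 and 6.002 FPKM in controls 1, 2 and 4 and at 37.6 to 42.5 FPKM in the libraries labelled Foxl2LsL. Without control 4, the log2 fold change was 1.94 for Cxcl17 (limma adjusted p 0.00134), -1.89 for Cxcl14 (0.000421) and 0.52 for Cx3cl1 (0.0275), so these calls were present without that library. The part of the epithelium in the spread of the controls was not tested.

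**Figure D4:**
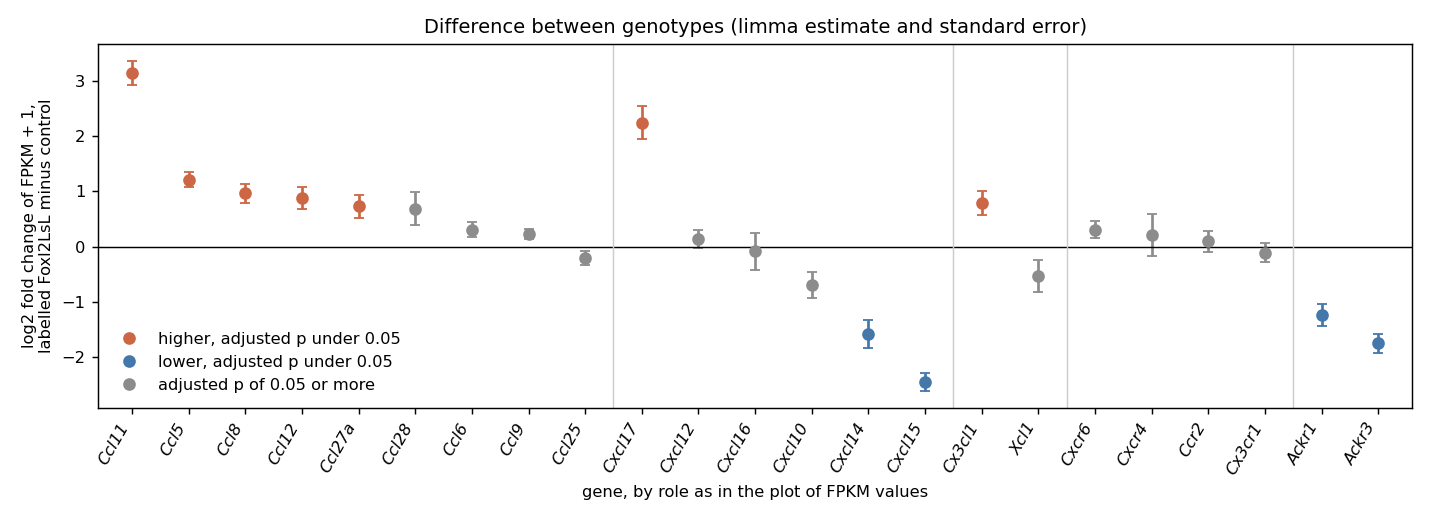
Log2 fold change of FPKM + 1 (labelled Foxl2LsL minus control) with its standard error for 23 of the 24 tested genes, ordered by role and coloured by the limma call. The 7 higher genes are ligands, the 4 receptors drawn lie between -0.11 and 0.31, and both tested atypical receptors are lower.

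The 5 tested receptors with G protein signalling overlapped between the groups. Ccr2, the receptor of inflammatory monocytes, was at 2.72, 5.62 and 4.58 FPKM in controls and at 4.95, 3.995, 4.47 and 4.72 FPKM in the libraries labelled Foxl2LsL (log2 fold change 0.10, SE 0.19, limma adjusted p 0.702). Cxcr4, the receptor of Cxcl12, was at 10.5, 6.91 and 2.96 FPKM and at 5.33, 10.9, 8.95 and 5.32 FPKM (log2 fold change 0.22, SE 0.38, limma adjusted p 0.672). In both groups the highest library of Cxcr4 was more than 2 times the lowest. Cxcr6, the receptor of Cxcl16, was at 0.859 ± 0.312 and 1.29 ± 0.249 FPKM (limma adjusted p 0.147). The test of the difference between ligands and receptors as classes was not made.

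The atypical receptors Ackr3 and Ackr1 both fell. Ackr3, which binds and removes Cxcl12, was at 16.8, 25.7 and 15.4 FPKM in controls and at 5.76, 4.68, 4.27 and 5.04 FPKM in the libraries labelled Foxl2LsL. The groups were well apart, with a log2 fold change of -1.75 (SE 0.17, limma adjusted p 0.000505; chromosome 1, 90203980 to 90216751, plus strand, GRCm38). The ratio of Cxcl12 to Ackr3 within a library, computed after the values were seen, was 1.24 ± 0.492 (SD, n = 3) and 5.10 ± 0.801 (SD, n = 4) without overlap. The ratio of Cxcl12 to Cxcr4 overlapped, at 4.82 ± 4.09 (SD, n = 3) and 3.57 ± 1.20 (SD, n = 4).

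Ackr1, the Duffy antigen receptor of venular endothelium and red cells, was at 1.80, 3.34 and 3.37 FPKM in controls and at 0.975, 0.307, 0.599 and 0.575 FPKM in the libraries labelled Foxl2LsL. Every labelled library was below every control, and the log2 fold change was -1.23 (SE 0.20, limma adjusted p 0.00301), on 17 to 260 fragments. The gene Cadm3 on the same strand covers 25.7% of the exon bases of Ackr1 (chromosome 1, 173331886 to 173333750, minus strand, GRCm38). Cadm3 itself was at 1.84, 4.15 and 4.96 FPKM and at 0.719, 0.700, 0.814 and 0.833 FPKM (log2 fold change -1.33, limma adjusted p 0.00413), and without strand or counting rules the reads of the shared bases cannot be told apart. Among blood vessel markers, Cdh5 (log2 fold change -1.17), Kdr (-0.58) and Pecam1 (-0.45) fell and Vwf rose (0.61) past the threshold (limma, 4 of 4 tested, against 40.6% of all tested genes). Their summed level was 61.2 to 95.9 FPKM in controls and 45.2 to 49.5 FPKM in the libraries labelled Foxl2LsL, and its part in the falls of Ackr1 and Ackr3 was not tested. Ackr2, which clears inflammatory CC chemokines, was below the filter at 0.589 ± 0.202 and 0.677 ± 0.290 FPKM, with overlap.

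The other receptors were at low levels. Ccr10, Cxcr3 and Ccr1 had a mean of at least 0.3 FPKM in a group and overlapped between the groups. Cxcr3, the receptor of Cxcl9 and Cxcl10 on T and NK cells, averaged 0.593 ± 0.127 FPKM in controls (SD, n = 3) and 0.652 ± 0.183 FPKM in the others (SD, n = 4). Ccr1, a receptor of Ccl3 and Ccl5, was at 0.201, 0.168 and 0.414 FPKM and at 0.507, 0.259, 0.554 and 0.444 FPKM. Of the 31 members below the filter with a fragment in some library, 26 overlapped between the groups, and 5 did not: Ccl20, Cxcl13, Ccr7, Ccr8 and Cxcr2. Among all genes of that kind 20.8% did not overlap. Ccr7, the receptor that guides dendritic cells and T cells to lymph nodes, was at 0.168, 0.271 and 0.123 FPKM and at 0.0930, 0.0530, 0.0840 and 0.0960 FPKM, on 5 to 36 fragments. Ccr8 had 1 to 5 fragments per library, Cxcr2 had 0 to 5 and Ccl20 had 0 to 9. The 21 members that were above 0 but had no group mean of 0.3 FPKM reached at most 0.452 FPKM in any library.

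Ligands and receptors were also read as 32 textbook pairs. Both genes passed the filter in 6 pairs, among them Ccl12 with Ccr2, Cxcl12 with Cxcr4, Cxcl12 with Ackr3, Cxcl16 with Cxcr6 and Cx3cl1 with Cx3cr1. In 0 of these did both genes pass the threshold in limma or in limma-voom, and in 0 did both have an unadjusted p under 0.05. The ligand passed the threshold in 7 pairs. Ccl8 rose while its receptor Ccr8 stayed at or below 0.0910 FPKM in every library.

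Leukocyte markers were counted beside the chemokines. Of 10 tested macrophage and monocyte markers, 4 were higher and 0 lower (median log2 fold change 0.52), against 16.7% higher and 23.9% lower among all tested genes. With 40.6% of all genes called, 4 of 10 is at the background. Of the marker genes named here, Cd163, Cd79b, Gzma and Gzmb passed the filter only through the group in which they were high, so their calls are partly set by the filter. Mrc1, the mannose receptor, rose from 2.63 ± 0.590 FPKM in controls to 8.32 ± 0.864 FPKM (log2 fold change 1.37, limma adjusted p 0.000411), and Cd163 (1.21) also rose. Itgam was at 1.60 to 1.99 FPKM in controls and 2.93 to 18.0 FPKM in the libraries labelled Foxl2LsL. Its rise (1.60, limma adjusted p 0.0416) was lost when any control or labelled library 1 or 4 was left out, with adjusted p-values up to 0.0934. Lyz2, the most abundant of the list, was at 104.2 ± 26.1 and 107.0 ± 14.1 FPKM. The list's summed level was 129.8 to 186.4 FPKM in controls and 187.3 to 239.1 FPKM in the libraries labelled Foxl2LsL, and its part in the rises of Ccl8, Ccl12 and Ccl11 was not tested. Of 3 tested dendritic cell markers Batf3 and Zbtb46 fell, while Siglech, below the filter, was at 0.258 to 0.749 FPKM in controls and 0.799 to 1.30 FPKM in the libraries labelled Foxl2LsL without overlap (limma adjusted p 0.0240 with the filter at 0.1 FPKM). The list's summed levels were 9.35 to 14.4 and 7.09 to 9.75 FPKM. Among NK cell markers Gzma rose (log2 fold change 1.44) and Gzmb fell (-0.92), and 1 of 3 tested did not pass (list sums 2.89 to 7.16 and 6.57 to 7.58 FPKM). The fall of Gzmb had overlapping groups, and it was lost when any library other than control 1 was left out, with adjusted p-values up to 0.145. Of the T cell markers only Lat was tested, without a call. Below the filter, Cd4 was at 0.198 to 0.357 FPKM and at 0.717 to 1.28 FPKM without overlap (limma adjusted p 0.00297 with the filter at 0.1 FPKM). Cd8b1 was at 0.113 to 0.341 FPKM and at 0.0310 to 0.0670 FPKM, also without overlap (limma adjusted p 0.0820 in that fit). Cd8a, Cd5, Cd3d, Cd3e and Cd3g, also below the filter, overlapped between the groups. The dendritic cell marker Itgax, just below the filter, was lower in the libraries labelled Foxl2LsL without overlap. Siglech, Cd4, Cd8b1 and these genes were chosen after their values were seen. The T cell list's sum was 2.03 to 3.92 and 3.77 to 4.34 FPKM. Among 4 tested B and plasma cell markers Cd79b was higher (log2 fold change 0.48), a call lost when any library other than labelled library 2 was left out (adjusted p up to 0.115). The list sums were 36.4 to 60.1 and 35.5 to 42.0 FPKM. Kit was higher (0.90) among 5 tested mast cell markers, with list sums of 8.79 to 15.3 and 16.1 to 26.8 FPKM. Neither of the 2 tested neutrophil markers passed, with sums of 3.81 to 5.50 and 3.14 to 5.62 FPKM.

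The genes around the receptors were read from lists of signalling, inducers, adhesion and processing. Of 17 tested genes of receptor signalling and desensitisation, 1 was higher and 6 lower (median log2 fold change -0.29), a count near the background of 40.6% called. Pik3r5, a subunit of the kinase downstream of chemokine receptors, fell (-0.60) but passed the filter only through the controls, the arrestin gene Arrb1 rose (0.48) and Arrb2 fell (-0.41), while Gnai2, the most abundant, was at 131.5 ± 8.90 and 120.0 ± 12.5 FPKM. The call of Arrb2 was lost without control 1, control 2 or labelled library 3 or 4 (adjusted p up to 0.0854). Of 15 tested inducers, 5 were higher and 0 lower (median 0.14), against 16.7% higher and 40.6% called in either direction among all tested genes. These were Nfkbia (1.27), the inhibitor of NF-kB, Il33 (1.03), an alarmin, and the receptors Il17ra (0.71), Il4ra (0.59) and Ifngr1 (0.31). The calls of Il4ra and Ifngr1 were each lost when some single libraries were left out, with adjusted p-values up to 0.0668 and 0.0828. The cytokines Tnf, Il1b, Il4, Il13 and Ifng were below the filter, and Il17a was listed at 0.

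Of 8 tested adhesion and homing genes, only Cd34 passed the threshold, and it fell (log2 fold change -0.98, limma adjusted p 0.0175). Across all tested genes 40.6% passed in either direction. The list's summed level was 103.8 to 200.7 FPKM in controls and 68.8 to 90.5 FPKM in the libraries labelled Foxl2LsL, and Cd34 was its most abundant gene. Of 12 tested genes for proteases that cut chemokines and for the heparan sulfate that holds them, 1 was higher and 7 lower (median -0.33), against 16.7% and 23.9% of all tested genes. The list counts were not tested against these shares. Mmp2 fell from 113.0 ± 24.9 FPKM in controls to 31.8 ± 5.99 FPKM, Mmp9 rose (log2 fold change 1.04), and Dpp4, the protease that inactivates Cxcl12 and Ccl11, fell (-0.51). The call of Dpp4 was lost without control 1, control 2 or labelled library 2 or 3 (adjusted p up to 0.0730). Sdc4, a heparan sulfate carrier with the highest mean of the list over all libraries, was at 76.4 ± 32.7 and 114.7 ± 18.5 FPKM and did not pass (limma adjusted p 0.0848).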

How the data were processed

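RNA from whole uterus was extracted with TRIzol and sequenced with Illumina libraries, per the labels' protocols. The authors deposited 1 table of FPKM values for 24964 gene symbols, 1 column per library, with each gene's length in bases as another value, per the file headers. STAR 2.5.2b, featureCounts 1.5.0-p1 and DESeq2 1.12.4 and the build mm10 are named in the submitters' processing notes, and strand, annotation and filters are not given in the sources used here. Columns were matched to samples by description, and groups by genotype.

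FPKM times length fell on whole multiples of a step in each library (100% of 1653 to 1832 low values within 0.1 of a whole number), which gave the fragments behind each value. A count of fragments covers counting error only, since PCR copies are not independent. Genes averaging 1 FPKM or more, and Foxl2, were fitted as log2(FPKM + 1) with limma 3.58.1 in R 4.3.3 (lmFit, eBayes with intensity trend) on all 7 libraries, without a block, since the labels do not say that numbers pair mice. Simulated data with 200 genes changed by 1.5 on the log2 scale gave 199 calls in the right direction and 16 false calls among 13344 genes. Every simulated gene had the same dispersion, and no library was set apart from its group. These counts therefore do not give the error rates in the measured libraries, where the spread differed between genes and libraries. Positions, exon overlaps and shared 50-base words were read by symbol from the GRCm38 annotation of GENCODE M21. Tables and plots were made in Python 3.11.15 with pandas 2.3.3, matplotlib 3.10.9 and numpy 2.4.6.

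Values are given for each member past the threshold, for the other tested members, and for members below the filter with a mean of at least 0.3 FPKM in a group. From each other list, counts are given with up to 3 of its largest calls and its most abundant gene. The values of 1 tested member and 1 marker gene are not reported here, though both enter the counts. Further genes (Cadm3, Zmynd15, Wnt7a, Foxa2, Epx, Il5ra, Ms4a1) were named after their values were seen. The members, lists and tests were chosen with earlier results of these data known. Alternatives were each library left out, a replicate block, other scalings, pseudocounts and filters, no trend, and limma-voom with weights on the recovered fragments.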

Additional observations from a re-analysis of the deposited data

Results flagged for a closer look

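Ccl8 in labelled Foxl2LsL library 2 was at 11.1 FPKM (11.101), far below the other 3 libraries of its group at 16.8 to 17.5 FPKM. The gap to its nearest neighbour was 0.911 of the group's range on the log2 scale, above the critical value of Dixon's test for 4 samples at the 95% level. It was the only such case among 25 genes examined, where chance flags about 1 in 20. Without that library the log2 fold change of Ccl8 was 1.11 (limma adjusted p 0.00159).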

How the results depend on the processing

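Results were recomputed under 16 alternatives, and each of the 11 called members kept its direction wherever it was tested. Ackr1, Ccl5, Ccl12 and Ccl27a were not tested with the filter at 5 FPKM, which leaves them 15 alternatives. Of these, 9 kept their call under each alternative that tested them, and Ccl27a and Cx3cl1 did not. The count of members past the threshold was 11 and was 7 under the stricter filter of a mean of 5 FPKM, where only 11 members were tested, and the count of higher members was then 4 in place of 7. Leaving out 1 library at a time gave 9 to 13 members past the threshold, 5 to 8 higher and 4 to 6 lower, and 3853 to 5328 of all tested genes. With the replicate block on numbers 1, 2 and 4, which drops labelled library 3, 3243 of all genes passed, against 5409, and 10 members passed (6 higher and 4 lower). In that fit Ccl27a and Cx3cl1 lost their call and Ccl28 gained one. Leaving out labelled library 3 without a block made the same changes (limma adjusted p 0.0645, 0.0644 and 0.0360). They therefore do not show an effect of the block itself. Deviations of same-numbered libraries correlated at 0.228, -0.0306 and -0.112 for numbers 1, 2 and 4. No reference spread was computed for these correlations, so they do not show whether the numbers pair mice. Of all called genes 41.1% were higher, 50.4% after median centring and 50.8% with limma-voom. Of the members 8 were higher and 4 lower in both.

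Among the uncalled results, 5 changed sign when 1 library was left out. Their log2 fold changes then ranged from -0.14 to 0.28 for Ccr2, -0.059 to 0.30 for Cxcl12, -0.20 to 0.57 for Cxcr4 and -0.10 to 0.28 for Foxl2. Cxcl16 ranged from -0.52 to 0.24 and was 0.0068 in the replicate block. The sign turned without control 1 for all of these but Cxcr4, which turned without control 4. It also turned without control 2 or labelled Foxl2LsL library 3 for Cxcl16 and without labelled library 4 for Foxl2. The cause was not tested. Depth limits genes such as Ccr8, with 1 to 5 fragments per library.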
